A study of Homo sapiens with 5 samples.

Results

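The NF-kB genes described here are 10 genes taken by symbol, namely the subunits NFKB1, NFKB2, RELA and RELB, the feedback inhibitors NFKBIA and TNFAIP3, the cytokines IL6, LIF and CCL2, and the anti-apoptotic target BIRC3. All 10 were present in each of the 3 deposited tables, among 10976 genes that the tables have in common. RNA was sequenced from HLF, an established human hepatocellular carcinoma line grown without treatment, in 5 conditions with 1 sample listed for each. USP28-Ctrl cells carried a control guide RNA (sgCtrl) and USP28-KO cells the guide sgUsp28 against the deubiquitinase USP28. The other 3 conditions all carried sgUsp28 and were transduced with the empty vector (pRRL-Ctrl), with wildtype USP28 (pRRL-Usp28-WT, USP28-WT) or with an allele whose dimer interface is disrupted by a point mutation (pRRL-Usp28-Mono, USP28-M). The study describes its knockouts as clones, and every reconstituted condition was made in USP28-knockout cells.

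NF-kB is a family of dimeric transcription factors whose subunits share a DNA-binding domain. In resting cells the dimers are held in the cytoplasm by inhibitors of the IkB family. Signals from cytokine receptors release them by IkB degradation in the canonical pathway, or by processing of the NFKB2 precursor in the non-canonical pathway. Several target genes encode inhibitors of the pathway itself, and in liver cells and hepatoma cells NF-kB is known for inflammatory cytokines and for protection from cell death.

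The value available for each gene is an average over libraries, given by the authors as a log2 CPM (counts of a gene scaled to library size, on a log2 scale). There is 1 average over the USP28-Ctrl and USP28-KO libraries and another over the vector, USP28-WT and USP28-M libraries, the latter with the same value for every gene in both reconstitution tables. No value of a single condition or library was used, so no condition was compared with another, no spread between replicates can be given and no test was run. The average of USP28 itself cannot check the labels for the same reason. The depth worked out from the spacing of the lowest averages was about 7690000 reads over all libraries of the first fit and about 30460000 over those of the second. The 95% intervals given below are exact Poisson intervals on the reads estimated in this way, and they cover counting error only.

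The label of hepatocellular carcinoma was set beside marker genes. Of 8 hepatocyte markers, 0 were listed in the USP28-KO table and 1, SERPINA1, at an average log2 CPM of 1.88 in the reconstituted tables. ALB, AFP and HNF4A, all from this marker list, were not listed in any table. All 5 markers of mesenchymal or dedifferentiated cells were listed, at levels far apart. VIM, the intermediate filament vimentin, was the highest, with averages of 11.71 and 11.69. SPARC had averages of 8.11 and 8.60, CDH2 of 7.72 and 8.06, and FN1 of 6.32 and 5.20. ZEB1 was the lowest, with 4.31 and 3.49, at percentiles 27.1 and 25.8 of the genes in the respective tables. Among the genes listed in all 3 tables its percentiles were 26.3 and 16.7. Of the leukocyte markers PTPRC, LYZ and CD3E were not listed. CD68, a lysosomal glycoprotein of macrophages that other cells also express, had averages of 6.86 and 7.73, and CD14 was listed only in the reconstituted tables, at 0.93. All 4 endothelial markers were missing from every table.

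Several of these genes are known to be controlled by NF-kB through kB sites near the start of transcription. Promoter windows from RefSeq (GRCh38.p14, 250 bases before to 50 after the start) covered NFKB1, NFKB2, RELA, NFKBIA, TNFAIP3, IL6 and BIRC3, and 6 of these 7 genes held a match to the kB consensus of 10 bases on either strand. Of all 27305 genes with a window 7.09% held such a match. Counted by windows, of which a gene can have several, 7 of 11 windows of these genes and 5.91% of all 35116 held a match. RELA had no match in its windows, which says only that these letters are absent there. For the inhibitors and targets, the stretches that hold matches wholly before the start are given from 5′ to 3′ on the strand of the gene. They are matches of letters, and binding to them was not tested. Capitals mark the matches, and those on the opposite strand are printed as their reverse complement, ending in CCC. A match on the strand of the gene can end in CCC as well.

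NFKBIA, chr14:35404801-35404850, minus strand, match from 81 to 72 bases before the start on the opposite strand: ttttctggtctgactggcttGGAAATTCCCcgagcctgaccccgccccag
TNFAIP3, chr6:137867172-137867233, plus strand, matches from 67 to 58 and from 55 to 46 bases before the start, both on the opposite strand: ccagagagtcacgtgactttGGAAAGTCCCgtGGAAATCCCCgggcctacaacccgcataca
IL6, chr7:22727107-22727156, plus strand, match from 73 to 64 bases before the start: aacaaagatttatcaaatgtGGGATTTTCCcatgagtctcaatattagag
BIRC3, chr11:102317265-102317314, plus strand, match from 199 to 190 bases before the start on the opposite strand: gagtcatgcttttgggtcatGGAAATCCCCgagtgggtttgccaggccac
BIRC3, chr11:102317329-102317378, plus strand, match from 135 to 126 bases before the start on the opposite strand: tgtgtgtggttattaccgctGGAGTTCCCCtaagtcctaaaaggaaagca

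Among the subunit genes, NFKB1 and NFKB2 held matches as well. All that lie wholly before a start are shown because both genes encode precursors whose own transcription is a known target of the pathway.

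NFKB1, chr4:102501290-102501339, plus strand, match from 49 to 40 bases before the start: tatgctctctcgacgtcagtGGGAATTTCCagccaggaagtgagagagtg
NFKB2, chr10:102394451-102394529, plus strand, overlapping matches on both strands from 107 to 97 bases and a match from 78 to 69 bases before the start: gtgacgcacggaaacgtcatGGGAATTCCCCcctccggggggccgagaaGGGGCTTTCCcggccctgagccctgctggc
NFKB2, chr10:102395509-102395558, plus strand, match from 176 to 167 bases before another start of the gene: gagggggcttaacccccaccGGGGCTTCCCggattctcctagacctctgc
NFKB2, chr10:102395664-102395704, plus strand, match from 21 to 12 bases before that other start: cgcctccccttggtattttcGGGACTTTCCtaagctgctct

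The subunits spanned a wide range of expression. NFKB2, the precursor of p52 in the non-canonical pathway, had an average log2 CPM of 7.34 (95% interval 7.25 to 7.42) over the USP28-Ctrl and USP28-KO libraries and 7.24 (7.20 to 7.28) over the reconstituted libraries. RELA, the p65 subunit with a transactivation domain, had averages of 6.89 (6.80 to 6.98) and 7.04 (6.99 to 7.08). NFKB1, the precursor of p50 and partner of RELA in the canonical dimer, was listed at 5.36 (5.19 to 5.52) and 5.75 (5.67 to 5.82). RELB, the partner of p52, was listed at 4.75 (4.55 to 4.95) and 5.72 (5.65 to 5.79). It was the lowest of the 4 in the first fit, whereas in the second its interval overlapped that of NFKB1. REL, the remaining family member and not one of the 10 genes, was not listed in the USP28-KO table and had an average of 0.96 in the reconstituted tables, from about 59 reads.

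Levels of different genes were compared per kilobase, as the average CPM divided by the union of the gene's exons in GENCODE release 29. On this scale NFKB2 stood at 36.0 CPM per kilobase over the USP28-Ctrl and USP28-KO libraries, RELA at 21.7, RELB at 8.86 and NFKB1 at 6.55. NFKB2 was thus 5.50-fold above NFKB1, and 3.19-fold with the median transcript, and RELA was 3.32-fold above NFKB1. In the reconstituted libraries the levels were 33.8 for NFKB2, 24.0 for RELA, 17.4 for RELB and 8.57 for NFKB1. With the union of exons the order was the same in both fits, and the ratio of RELA to RELB was 2.45 in the first and 1.38 in the second. With the median transcript this ratio was 5.36 and 3.02, and RELA passed NFKB2 in the second fit, at 190 against 178 CPM per kilobase. RELB and NFKB1 changed places in both fits with the median transcript and without division by length.

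**Figure D1:**
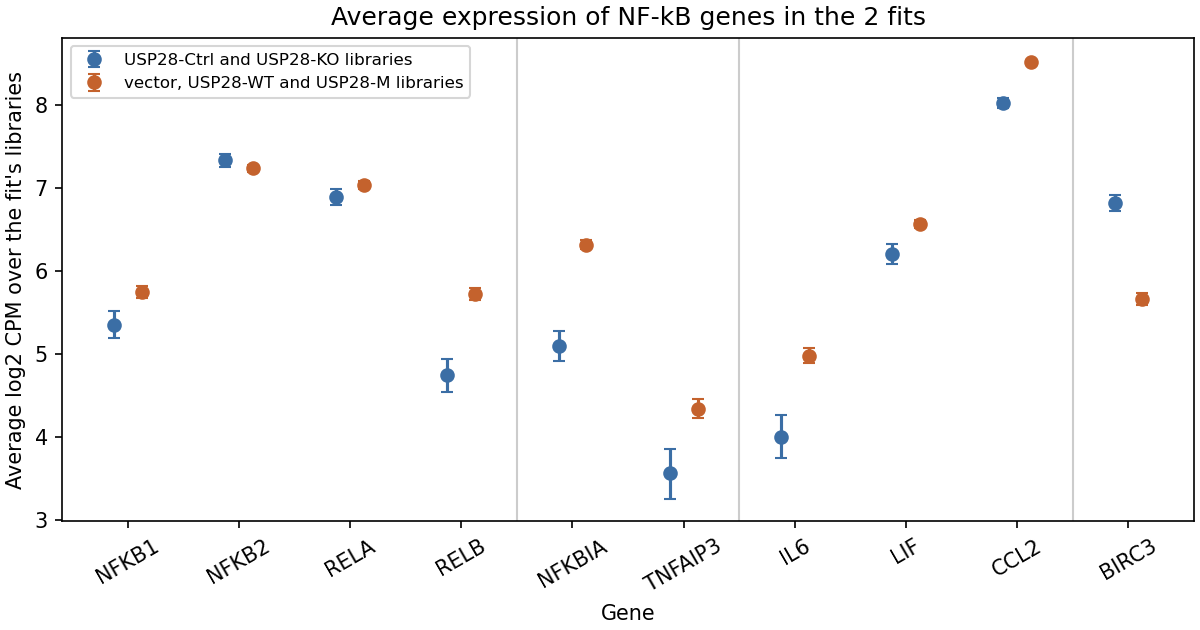
Average log2 CPM (vertical axis) of the 10 NF-kB genes over the USP28-Ctrl and USP28-KO libraries (blue) and over the vector, USP28-WT and USP28-M libraries (orange). Bars are 95% Poisson intervals on the estimated reads, grey lines separate subunits, inhibitors, cytokines and BIRC3, and NFKBIA and BIRC3 show the widest gaps between the fits, in opposite directions.

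The feedback inhibitors lay apart from each other in level. NFKBIA encodes IkBalpha, which captures RELA dimers and is resynthesized after each activation. Its average log2 CPM was 5.10 (4.92 to 5.28) over the USP28-Ctrl and USP28-KO libraries and 6.32 (6.26 to 6.38) over the reconstituted libraries. TNFAIP3 encodes A20, a ubiquitin-editing enzyme that switches off signaling upstream of the IkB kinase. It was the lowest of the 10 genes in both fits, at 3.56 (3.25 to 3.86) and 4.34 (4.23 to 4.46), with about 91 and 619 reads behind the averages. Per kilobase, NFKBIA was 6.19-fold above TNFAIP3 in the first fit and 8.36-fold in the second. NFKBIA stood at 14.5 and 33.6 CPM per kilobase, and TNFAIP3 at 2.34 and 4.02. TNFAIP3 held rank 10 of the 10 genes also per kilobase of the longest or the median transcript.

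Of the cytokines, CCL2 was by far the most abundant. CCL2, the chemokine that attracts monocytes, had an average log2 CPM of 8.03 (7.96 to 8.09) over the USP28-Ctrl and USP28-KO libraries and 8.52 (8.49 to 8.55) over the reconstituted libraries. These values lay at percentiles 93.9 and 96.5 of the genes in the respective tables. LIF, a cytokine of the IL-6 family, had averages of 6.20 (6.08 to 6.32) and 6.57 (6.51 to 6.62). IL6, which signals to hepatocytes in the acute phase response, was listed at 4.01 (3.75 to 4.26) and 4.98 (4.89 to 5.07), the former from about 124 reads. Per kilobase CCL2 reached 131 and 185 CPM, against 18.6 and 23.9 for LIF and 7.77 and 15.3 for IL6. CCL2 was therefore 16.9-fold above IL6 in the first fit and 12.1-fold in the second, and it ranked first of the 10 genes on every scale of length tried.

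BIRC3 encodes cIAP2, a ubiquitin ligase that acts in signaling from TNF receptors, restrains the non-canonical pathway and protects from cell death. Its average log2 CPM was 6.82 (6.72 to 6.91) over the USP28-Ctrl and USP28-KO libraries and 5.66 (5.59 to 5.73) over the reconstituted libraries. BIRC2, the neighbouring gene for the related cIAP1, had averages of 6.58 and 5.24. Per kilobase of the union of exons, BIRC3 stood at 0.709 times the level of BIRC2 in the first fit and at 0.810 times in the second. The direction depends on the length used, since with the longest transcript the ratios were 0.922 and 1.05 and with the median transcript 1.40 and 1.60. In the order of the 10 genes per kilobase over the USP28-Ctrl and USP28-KO libraries, BIRC3 (15.0) and NFKBIA (14.5) were neighbours that counting error does not separate. In the reconstituted libraries BIRC3 was next to last at 6.73 CPM per kilobase. NFKBIA and NFKB2 there lay 33.6 against 33.8 and RELA and LIF 24.0 against 23.9, closer than counting error separates. These positions hold for the union of exons, and per kilobase of the median transcript BIRC3 ranked 4 and 6.

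**Figure D2:**
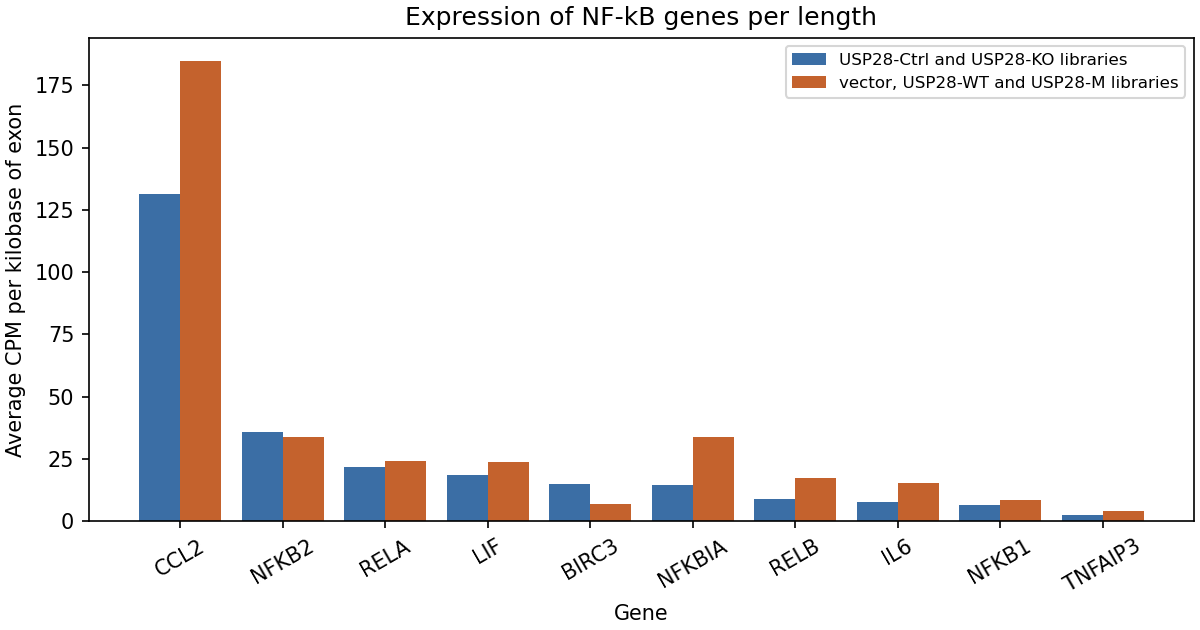
Average CPM per kilobase of exon (vertical axis, from 0) of the 10 NF-kB genes, ordered by level in the USP28-Ctrl and USP28-KO libraries (blue), with the vector, USP28-WT and USP28-M libraries in orange. CCL2 stands at 131 and 185, and every other gene lies at or below 36.0 in both fits.

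The averages come from 2 separate fits and were normalized separately. They differ in condition, in transduction with a pRRL vector, in depth and in the genes kept. These cannot be told apart, so the differences below are a description. Over the 10976 shared genes the median difference, reconstituted minus USP28-Ctrl and USP28-KO, was -0.12 on the log2 scale, with quartiles of -0.50 and 0.20, and 40.1% of the genes were higher in the reconstituted average. Of the 10 NF-kB genes 8 were higher and 2 lower, with a median difference of 0.44. NFKBIA had a difference of 1.22, at percentile 99.3 of all shared genes. IL6 and RELB followed with 0.97 each, at percentile 98.3. The difference was 0.78 for TNFAIP3, 0.49 for CCL2, 0.39 for NFKB1, 0.37 for LIF and 0.14 for RELA. NFKB2 had a difference of -0.094, close to the median of all genes and above it. Among the 10 genes only BIRC3 lay at the lower end, with -1.16 at percentile 6.06. Its neighbour BIRC2, outside the 10, lay lower still, with -1.35 at percentile 3.81.

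A difference of at least 1 on the log2 scale was reached upwards by 1 of the 10 genes, NFKBIA, against 1.52% of all shared genes, and downwards by 1, BIRC3, against 9.02%. With the median of all genes taken off, IL6 and RELB also passed upwards, making 3 of the 10 genes against 2.41% of all shared genes. At least 0.5 upwards was reached by 4 of the 10, against 9.39%. The standard error from counting reads alone was 0.093 for the difference of NFKBIA, 0.14 for that of IL6, 0.11 for that of RELB and 0.061 for that of BIRC3. The spread between libraries, which is not known here, comes on top of it. Differences moved with the GC content of the longest transcript, with a Spearman's rho of 0.476 over 10635 genes within these same averages. The GC content was 53.1% for NFKBIA, 65.4% for RELB, 44.5% for IL6 and 34.8% for BIRC3, beside a median of 47.5% over all genes. Its part in the differences was not tested.

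The wider pathway was taken from lists by symbol, with 79 distinct genes, of which 67 were listed in the USP28-KO table and 71 in the reconstituted tables. At an average log2 CPM of at least 3 these numbers were 63 and 61, so that the direction turned. All 14 IkB proteins and feedback inhibitors were listed in both. Of these genes 8 were higher and 6 lower in the reconstituted average. Their median difference was 0.016, against -0.12 over all shared genes, of which 40.1% were higher. At least 1 upwards on the log2 scale was reached by 2 of the 14, NFKBIA (1.22) and TNIP1 (1.28), against 1.52% of all shared genes. At least 1 downwards was reached by 2, NFKBIZ (-1.83) and TAX1BP1 (-1.11), against 9.02%. TNIP1, a partner of A20 in restraining the pathway, had averages of 7.36 and 8.64 and led this list per kilobase in the reconstituted libraries. In the others NFKBIB, which encodes IkBbeta, stood at 31.8 and TNIP1 at 28.3 CPM per kilobase of the union of exons. This order depended on the length used, since TNIP1 was the higher on the other lengths. All 22 kinases and adaptors were listed in both, with 8 higher and 14 lower. Their median difference was -0.076, against -0.12 over all shared genes, of which 40.1% were higher. At least 1 upwards was reached by 0 of these 22 genes and downwards by 2, against 1.52% and 9.02%. IRAK1, a kinase downstream of interleukin-1 and Toll-like receptors, led them with averages of 9.27 and 9.24.

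Receptors that signal to NF-kB were listed in part. Of 11 genes, 8 were in the USP28-KO table and 9 in the reconstituted tables, and TLR2 and TLR4, which recognize bacterial products, were in neither. TNFRSF1B, the second receptor for TNF, was only in the reconstituted tables, at 2.52. TNFRSF12A, the receptor for TWEAK, had the highest level of the list per kilobase, apart from the median transcript in the second fit, with average log2 CPM values of 8.39 and 7.83. Of the receptors for the 3 cytokines, IL6ST, the signaling chain shared by IL-6 and LIF, had averages of 8.18 and 6.82. IL6R, the binding chain for IL-6, was listed at 5.04 and 5.53, and LIFR, that for LIF, at 3.54 and 3.49. OSMR, kept in the same list although it is the receptor for oncostatin M, had averages of 6.38 and 7.25. CCR2, the receptor for CCL2, was not listed in any table.

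Of 14 target cytokines 8 were listed in the USP28-KO table and 10 in the reconstituted tables, and CCL2 led per kilobase in both. IL1A, IL1B, CSF2 and LTB were in neither, while TNF and CSF3 were listed only in the reconstituted tables, at 1.72 and 1.86. At an average log2 CPM of at least 3 there were 7 in each, and 6 of the receptors in each. The lowest average listed was 1.70 in the USP28-KO table and 0.40 in the others, so a gene missing from the former may have been read at a low level. Of the 8 cytokines listed in both, 5 were higher and 3 lower in the reconstituted average. Their median difference was 0.37, against -0.12 over all shared genes, of which 40.1% were higher. At least 1 on the log2 scale was reached upwards by 1 of these cytokines and downwards by 1, against 1.52% and 9.02%. Of 9 survival and adhesion targets 8 were listed in each, with 4 higher and 4 lower. Their median difference was -0.044, beside the same values over all shared genes. At least 1 upwards was reached by 0 of these targets and downwards by 2. BCL2A1 was missing, and BCL2L1, which encodes the anti-apoptotic protein BCL-XL, led the list with averages of 8.35 and 8.66.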

How the data were processed

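RNA was measured in 5 HLF conditions, 1 listed sample each. The submitters' processing notes name bcl2fastq 2.20, STAR 2.5.4, hg19 and edgeR 3.26.8, while the counting, filter and number of libraries are not given in the sources used here. The authors deposited 3 tables, each with an average log2 CPM per gene over all libraries of a fit, normalized by the authors. The remaining columns hold the authors' own comparisons (fold changes, F statistics and p-values) and were not used. In the USP28-KO table the header starts 1 cell early, and the average was taken by position. Columns of single samples that match no sample numbered 0.

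The members and lists were chosen with earlier results of these data known. The genes named are the 10 members and, from each list, genes missing from a table, the highest gene per kilobase and markers, of which 1 is not reported here. BIRC2 and further receptors and genes were named after their values were seen. Reads were estimated from the step between the lowest 10% of averages (0.130 and 0.0328 CPM per read). Of these, 96.6% and 66.0% lay within 0.1 reads of a whole number after a fitted common offset was taken off. The read numbers given for single genes were not corrected for an offset. On simulated averages of 11102 and 12342 genes, steps of 0.05 and 0.2 CPM were recovered to within 1%. The simulation did not model the lower share near whole reads in the second fit. CPM per kilobase used the union of exons in GENCODE release 29 (GRCh38), matched by symbol, with no coordinates converted from hg19. Such a union counts bases of all transcripts and so understates levels of genes with many. The tools were matplotlib 3.10.9, scipy 1.17.1, pandas 2.3.3 and numpy 2.4.6 under Python 3.11.15.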

Additional observations from a re-analysis of the deposited data

How the results depend on the processing

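No paired analysis was possible because the tables hold no values of single libraries, and for the same reason no library could be left out and no count model, other normalization or filter on counts could be tried. Per kilobase, the median level of the 10 genes was 14.7 CPM over the USP28-Ctrl and USP28-KO libraries and 20.6 over the reconstituted ones. It became 20.1 and 23.5 with the longest transcript and 51.1 and 77.0 with the median transcript. Without division by length, 4 and 3 of the 10 genes kept their rank. The median percentile of the genes in the reconstituted tables went from 72.1 to 68.7 among genes listed in all 3 tables. In settings added after seeing the data, 4 genes were higher in the reconstituted average by at least 0.5 on the log2 scale, and 3 by at least 1 with the median of all genes taken off, against 1 as reported (9.39%, 2.41% and 1.52% of all shared genes). Other gene sets, an average log2 CPM of at least 3, the lowest 5% of genes and the short motif moved the median percentile in the USP28-KO table, the number of pathway genes listed, the estimated depth and the number of genes with a promoter match by less than 1.5 times. The number of pathway genes nevertheless went from 67 and 71 to 63 and 61 at an average log2 CPM of at least 3. With the short motif GGGAA or GGGAC, 7 of 7 genes had a match, as had 85.4% of all genes. About 91 reads behind TNFAIP3 in the first fit set the widest interval among the 10 genes.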
